A study of Bos taurus with 56 samples.

Results

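The ERBB receptors and their EGF-family ligands were followed through the epithelium of the bovine oviduct. All 10 listed genes were found by symbol among the 31903 genes of the deposited table, 4 receptors (EGFR, ERBB2, ERBB3 and ERBB4) and 6 ligands (TGFA, AREG, HBEGF, NRG1, BTC and EGF). The table gives symbols and no coordinates. The genes were chosen by family membership with earlier results of these data in view, including their levels and the lists of differentially expressed genes drawn from the same libraries, which hold TGFA, ERBB4, ERBB3 and BTC. Their p-values, although taken from fits over all genes, are therefore a description and not independent evidence.

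Epithelial cells were scraped from the ampulla and the isthmus, on the side of the corpus luteum (CL; ipsilateral) and on the other side (contralateral), of 14 Holstein females. There were 5 nulliparous heifers, 5 cows dried off at first calving and never milked (non-lactating) and 4 milked cows (lactating), each giving 1 library per tissue, 56 libraries in 12 conditions. The cows were about 60 days post-partum. In all animals the cycle was synchronized with an intravaginal progesterone device, a prostaglandin F2 alpha analogue and buserelin, and tissue was taken on Day 3 after estrus without insemination. Heifers had never calved, so parity and the post-partum state cannot be told apart where they are compared with cows.

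ERBB receptors are tyrosine kinases of the cell surface that signal as pairs. EGFR binds TGFA, AREG and EGF, both EGFR and ERBB4 bind HBEGF and BTC, and ERBB3 and ERBB4 bind NRG1. ERBB2 has no known ligand of its own and acts as a partner of the others, whereas ERBB3 has little kinase activity and depends on its partner. The ligands are made as membrane proteins and are released by proteases such as ADAM17, and an active receptor works through RAS, ERK and phosphatidylinositol 3-kinase. In the oviduct this family is known for its part in the growth of the epithelium and in the exchange of signals with the early embryo.

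Between 1901454 and 6836850 reads per library lay on genes (median 4931502.5), so 3 reads, the floor of detection used here, stand for 0.445 to 1.55 CPM (counts scaled to a common library size by edgeR). Fewer cells of a type and less RNA per cell cannot be told apart in such bulk samples. The epithelial marker EPCAM lay between 165 and 518 CPM, and OVGP1, the glycoprotein of secretory cells, ranged from 37.7 to 36154 CPM. Of 6 smooth muscle markers, CNN1, TAGLN and ACTG2 were at 0 in 44, 45 and 35 libraries and MYH11 in 5 (highest 88.5 CPM), while ACTA2 (2.57 to 25.02 CPM) and DES (0.192 to 8.20 CPM) were at 0 in none. On the 200 genes that differ most between animals, 52 of the 56 libraries were most like the other libraries of their own animal. The ipsilateral ampulla libraries of heifer A and non-lactating cow A each resembled the other animal (r = 0.773 and 0.665) more than their own (r = 0.131 and 0.218). In the same tissue a non-lactating and a lactating library bear a number of the other group, and each resembled an animal of the group it is labelled with (r = 0.781 and 0.911). These 4 libraries were kept in their labelled groups. Fold changes and numbers of calls without them stand beside the main tests of the members between sides and between regions that use them.

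Every library held reads of all 4 receptors. EGFR, the receptor of EGF itself, had 254 to 1043 reads and a mean of 149 ± 28.7 CPM (SD, n = 56). ERBB2 had 499 to 2813 reads (252 ± 47.7 CPM) and ERBB3 747 to 3216 reads (350 ± 71.9 CPM). ERBB4, a receptor of neuregulins, had 53 to 350 reads (40.2 ± 15.4 CPM). These levels are not corrected for transcript length and say nothing on the order of the genes. Relative to its own lowest condition mean, the highest was 1.49 times as high for EGFR, 1.39 for ERBB2, 1.59 for ERBB3 and 4.15 for ERBB4.

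Among the ligands, TGFA had 54 to 373 reads (42.6 ± 15.5 CPM), BTC 64 to 308 reads (33.0 ± 8.14 CPM) and HBEGF 5 to 57 reads (4.94 ± 1.96 CPM). AREG and NRG1 lay near the floor. AREG, which encodes amphiregulin, had 0 to 28 reads (1.49 ± 1.17 CPM) with 6 libraries at 0, and NRG1, which encodes neuregulin 1, 0 to 41 reads (1.59 ± 1.61 CPM) with 4 libraries at 0. EGF itself was close to undetected. It had 9 reads in all, 7 of them in the contralateral isthmus, and 48 libraries at 0, each of which allows a level up to its floor. The filter on low counts was passed by 7 to 9 members per comparison: EGFR, ERBB2, ERBB3, ERBB4, TGFA, HBEGF and BTC passed in all 22, AREG in 8, NRG1 in 9 and EGF in none.

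**Figure D1:**
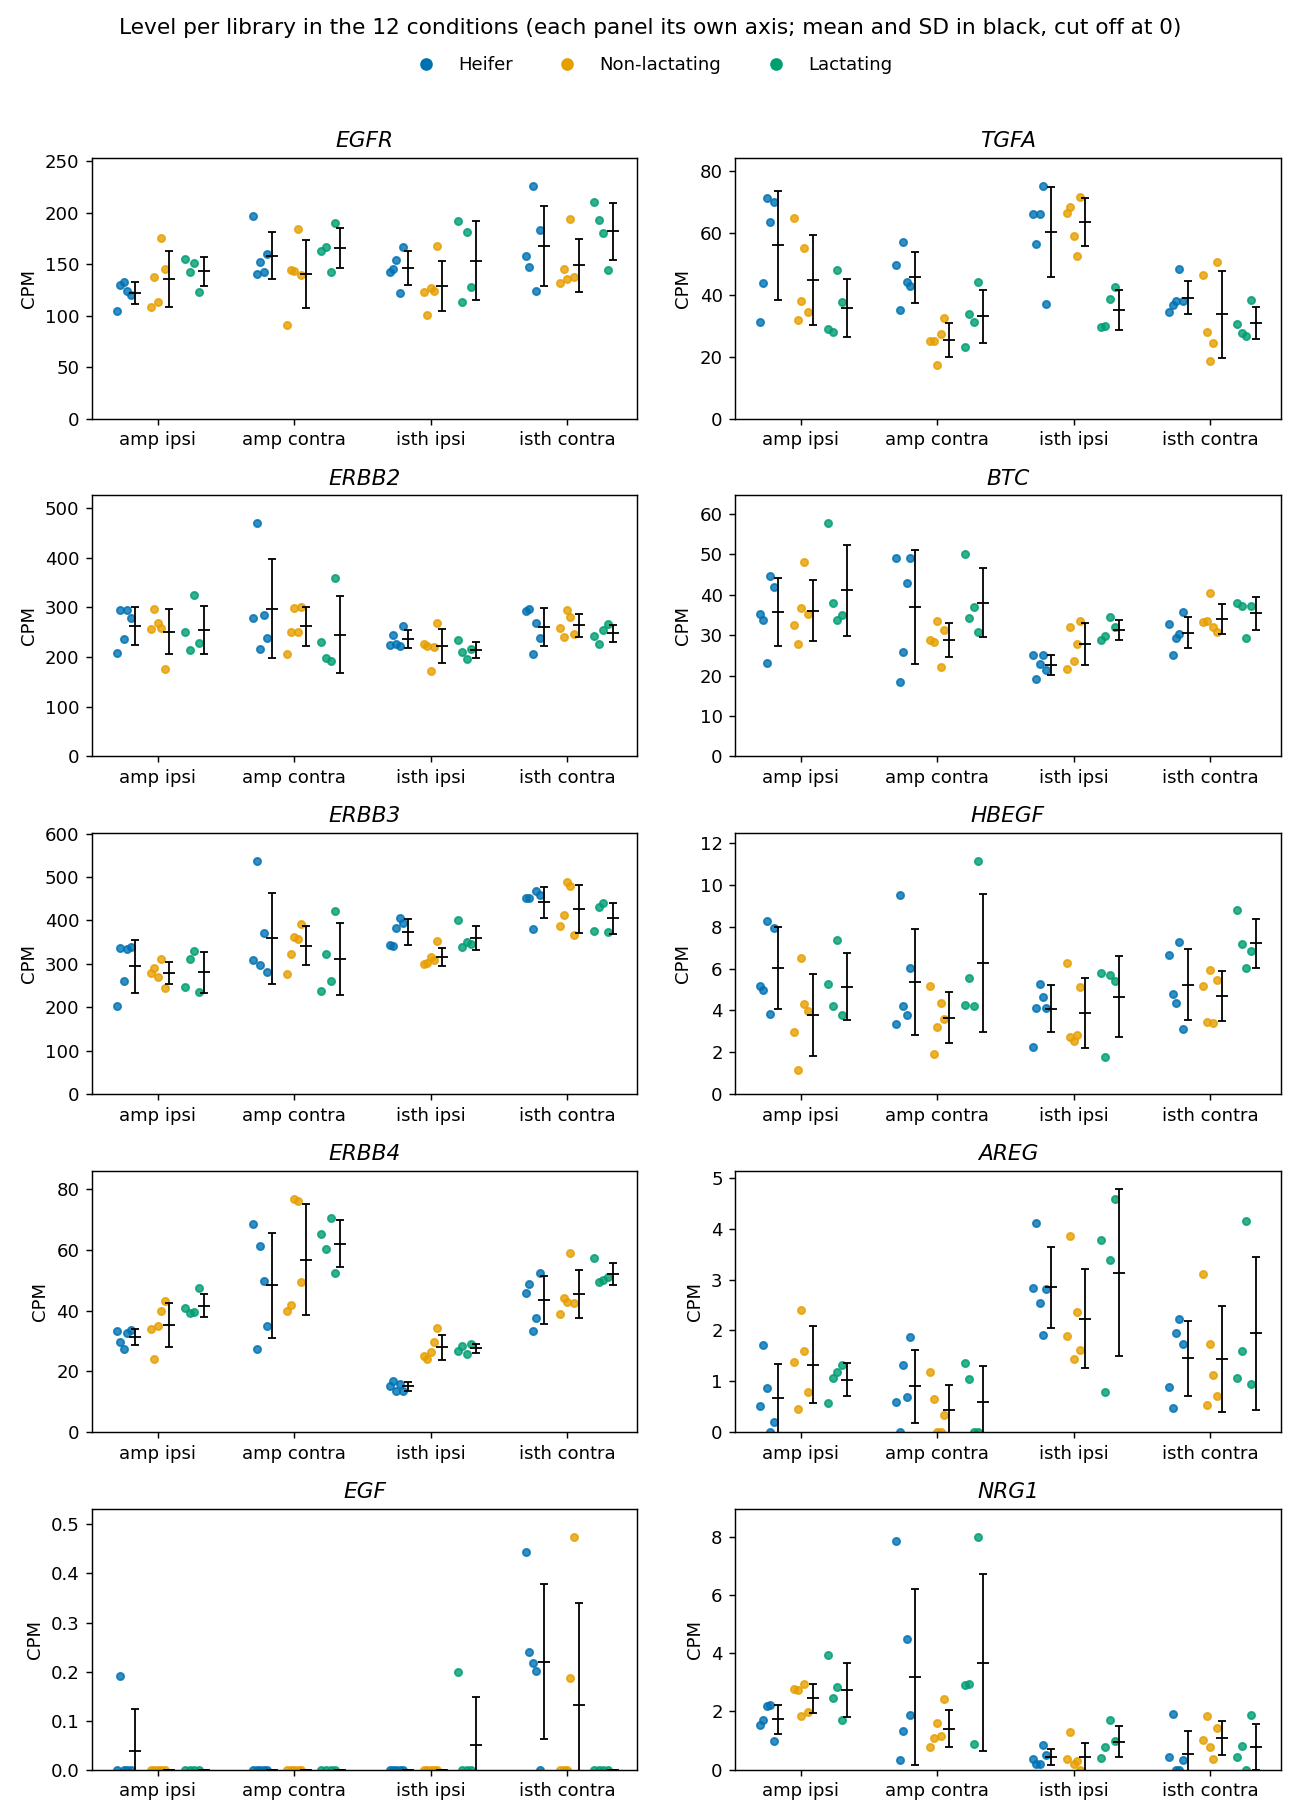
Level of each gene in CPM per library (points) in the 12 conditions, ordered by region (amp, ampulla; isth, isthmus) and side relative to the CL, with the mean and SD of each condition (bars) and an axis of its own for each gene. ERBB4 is lowest in the ipsilateral isthmus of heifers (13.6 to 16.9 CPM), apart from every other condition, and EGF is at 0 in 48 of 56 libraries.

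The order of the conditions differed between ERBB4 and TGFA, which encodes transforming growth factor alpha. For ERBB4, the 6 contralateral means lay above the 6 ipsilateral ones, from 62.1 ± 7.74 CPM (n = 4) in the contralateral ampulla of lactating cows down to 43.6 ± 7.90 (n = 5) in the contralateral isthmus of heifers. The ipsilateral means ran from 41.7 ± 3.83 CPM (n = 4) in the ampulla of lactating cows to 27.5 ± 1.49 (n = 4) in their isthmus, with the ipsilateral isthmus of heifers last at 15.0 ± 1.39 CPM (n = 5). Of the 11 pairs of neighbours in this order, 10 overlapped in their libraries, and the exception was the last step. For TGFA, non-lactating cows (63.6 ± 7.70 CPM, n = 5) and heifers (60.3 ± 14.5, n = 5) came first, both in the ipsilateral isthmus, and the contralateral ampulla of non-lactating cows last (25.5 ± 5.57, n = 5). All 11 pairs of neighbours overlapped for TGFA and for each of the other 8 members.

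The sides were compared first in the isthmus, the comparison that addresses the effect of the nearby CL. According to the paper, effects of the unfertilized oocyte and its cumulus on the ipsilateral side cannot be separated from it. The paper holds a detectable effect of the oocyte unlikely. ERBB4 was lower on the ipsilateral side in all 3 metabolic groups and in 14 of 14 animals. TGFA was higher on the ipsilateral side in heifers and non-lactating cows, while in lactating cows the means were 35.2 and 30.8 CPM. BTC in heifers and ERBB3 in non-lactating cows were lower on the ipsilateral side, by less than 1.5 times. In heifers 3 of 8 tested members passed the quasi-likelihood F test of edgeR, Benjamini-Hochberg adjusted over all genes (adjusted p under 0.05), where 10% of all tested genes passed (1361 of 13548). In non-lactating cows it was 3 of 7 members (5.11% of all genes) and in lactating cows 1 of 8 (0.187% of all genes).

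ERBB4 in the contralateral isthmus of heifers A to E was at 45.8, 48.7, 33.4, 37.7 and 52.5 CPM, and on the ipsilateral side of the same animals at 15.2, 16.9, 13.6, 15.7 and 13.6 CPM. The sides did not overlap, and the ipsilateral level was 2.95-fold lower (log2 fold change -1.56 ± 0.15, SE; edgeR adjusted p = 0.00131). In non-lactating cows A to E the contralateral levels were 38.8, 44.2, 43.0, 59.1 and 42.5 CPM and the ipsilateral ones 25.2, 24.2, 26.3, 29.6 and 34.3 CPM. Here too each ipsilateral library lay below each contralateral one, by 1.65-fold on average (log2 fold change -0.72 ± 0.14; edgeR adjusted p = 0.0148). Lactating cows A to D had 57.3, 49.5, 50.0 and 51.2 CPM on the contralateral and 26.8, 28.5, 25.8 and 29.0 CPM on the ipsilateral side. The ipsilateral level was 1.89-fold lower without overlap (log2 fold change -0.91 ± 0.11; edgeR adjusted p = 0.0149). The heifers' call was kept without any 1 of them. The non-lactating call was lost without cow B, C or D (edgeR adjusted p = 0.0598 to 0.0715) and the lactating call without any 1 of the 4 cows (0.0802 to 0.249), with log2 fold changes of -0.63 to -0.72 and -0.85 to -0.95.

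Cell type markers were compared between the same sides. Summed ciliated cell markers lay at 3515 to 4836 CPM ipsilaterally and 4627 to 6331 contralaterally in heifers, at 4600.4 to 6009 and 5032 to 6586 in non-lactating cows and at 3508 to 5491 and 4739 to 6157 in lactating cows. DNAH5 and DNAH9, with medians of 2378 and 2176 CPM over all libraries, made up most of these sums. Of the 8 ciliated markers 1 passed the test in heifers, lower on the ipsilateral side, and 0 did in the cow groups. The median log2 fold changes of the 8 were 0.02, 0.04 and -0.04 in heifers, non-lactating and lactating cows. Of the 7 epithelial markers 3 passed in heifers and 2 in non-lactating cows, all higher on the ipsilateral side. In heifers, summed smooth muscle markers were at 48.1 to 93.8 CPM on the ipsilateral and 25.4 to 82.2 on the contralateral side, and endothelial ones at 13.1 to 20.5 and 8.24 to 57.0. Their part in the ERBB4 result was not tested.

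TGFA in the contralateral isthmus of heifers A to E was at 34.7, 36.9, 38.0, 48.4 and 38.0 CPM and in the ipsilateral isthmus at 66.3, 56.5, 66.1, 75.4 and 37.2 CPM. Heifer E alone did not have the higher level on the side of the CL, and its ipsilateral library lay within the contralateral range. The ipsilateral level was 1.51-fold higher (log2 fold change 0.59 ± 0.17; edgeR adjusted p = 0.0417). In non-lactating cows A to E, TGFA was at 46.6, 28.1, 18.8, 24.6 and 50.8 CPM contralaterally and at 66.4, 68.4, 59.0, 52.6 and 71.6 CPM ipsilaterally. Cows A and E were the highest on the contralateral side, yet the sides did not overlap. TGFA was 1.90-fold higher ipsilaterally there (log2 fold change 0.92 ± 0.24; edgeR adjusted p = 0.0466). In lactating cows A to D, contralateral levels of 30.6, 27.7, 26.8 and 38.3 CPM stood against ipsilateral levels of 29.6, 30.1, 38.7 and 42.6 CPM. The sides overlapped and the log2 fold change was 0.19 ± 0.17 (edgeR adjusted p = 0.729). Both TGFA calls were lost when single animals were left out. In heifers the call was lost without A, B, C or D (edgeR adjusted p = 0.0560 to 0.143), and in non-lactating cows without A, B, C or D (0.0701 to 0.173).

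As the plot of both sides per animal shows, TGFA was higher on the ipsilateral side of the isthmus in 12 of 14, the exceptions being heifer E and lactating cow A. All 12 also had the lower ERBB4 on that side. The median difference within animals was 0.57 for TGFA and -0.97 for ERBB4 on the log2 CPM scale.

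**Figure D2:**
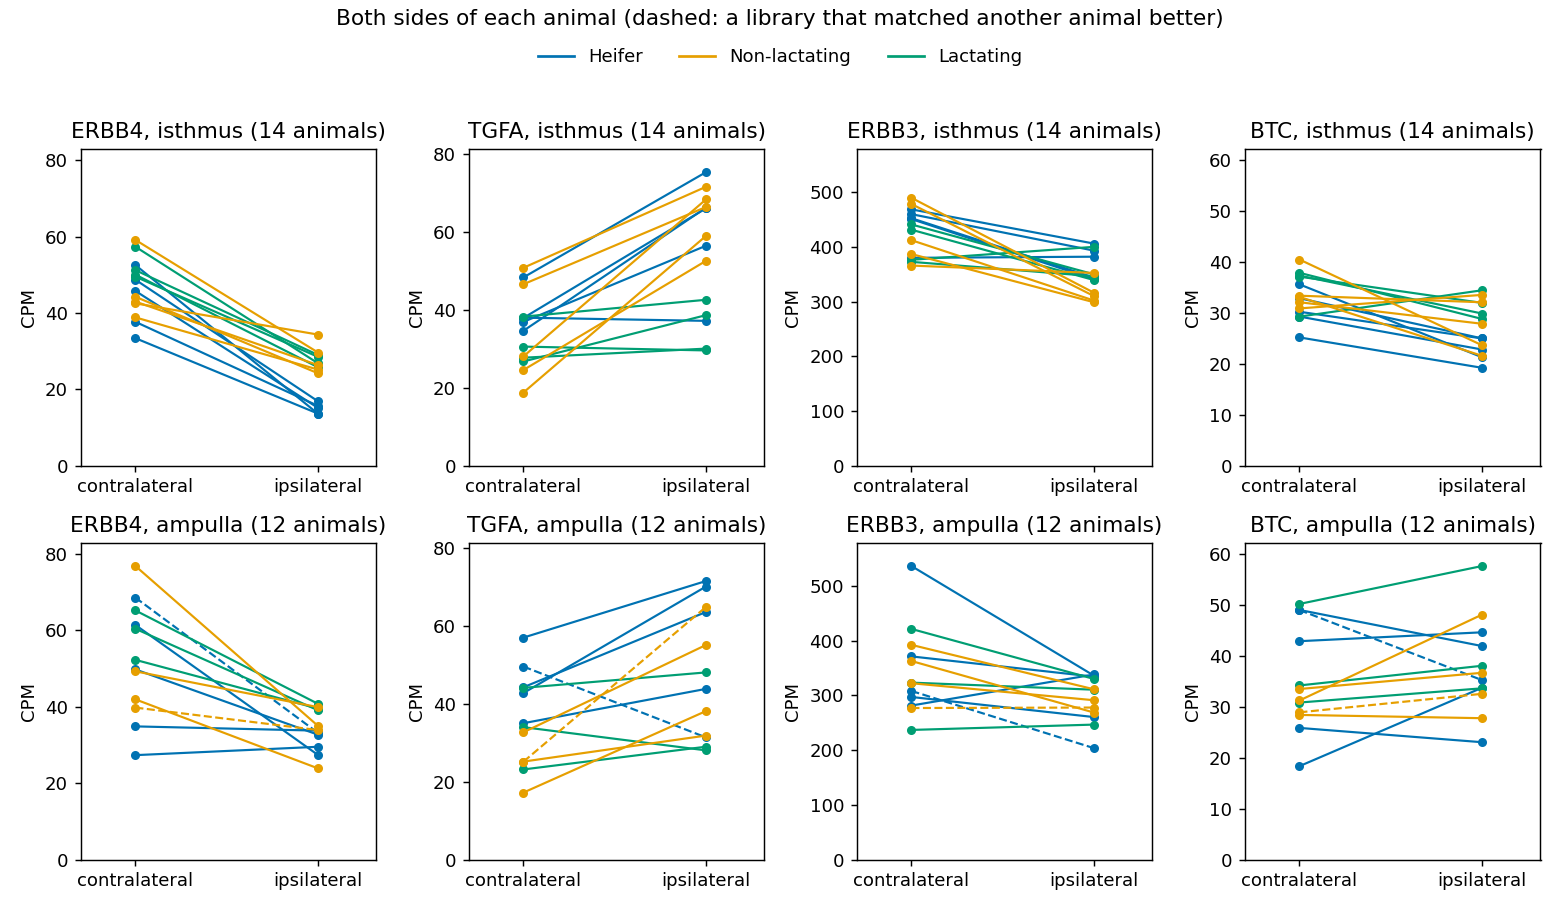
Level of ERBB4, TGFA, ERBB3 and BTC in CPM (axis from 0) on both sides of each animal, in the isthmus (14 animals) and the ampulla (12 animals whose number pairs both sides). In the isthmus all 14 lines of ERBB4 fall toward the ipsilateral side and 12 of 14 lines of TGFA rise, and in the ampulla 11 of 12 fall and 10 of 12 rise.

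BTC, which encodes betacellulin, was at 32.9, 25.2, 29.3, 30.2 and 35.6 CPM in the contralateral and at 24.99, 19.2, 22.8, 24.99 and 21.3 CPM in the ipsilateral isthmus of heifers A to E. The sides just failed to overlap, and BTC was 1.37-fold lower ipsilaterally (log2 fold change -0.45 ± 0.13; edgeR adjusted p = 0.0440). That call was lost without any 1 of the 5 heifers (edgeR adjusted p = 0.0635 to 0.169) and without the filter on low counts (0.0955). In non-lactating and lactating cows the log2 fold changes of BTC were -0.30 ± 0.15 and -0.18 ± 0.13 (edgeR adjusted p = 0.256 and 0.671), and BTC was lower on the ipsilateral side in 12 of 14 animals.

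ERBB3, which lends its neuregulin binding to ERBB2, was in non-lactating cows A to E at 387, 412, 490, 478 and 366 CPM in the contralateral and at 299, 302, 316, 310 and 352 CPM in the ipsilateral isthmus. No ipsilateral library reached the contralateral range, and the ipsilateral level was 1.36-fold lower (log2 fold change -0.44 ± 0.11; edgeR adjusted p = 0.0327). With the animal as a replicate block the adjusted p was 0.0528, without the filter 0.0549, and without cow A, B, C or D 0.0965 to 0.171. In heifers the log2 fold change was -0.27 ± 0.09 (edgeR adjusted p = 0.0772, DESeq2 0.0317) and in lactating cows -0.17 ± 0.11 (edgeR adjusted p = 0.577). ERBB3 was lower on the ipsilateral side in 12 of 14 animals.

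The remaining members passed the test in no group of the isthmus. EGFR had log2 fold changes of -0.23, -0.22 and -0.25 in heifers, non-lactating and lactating cows and was lower on the ipsilateral side in 12 of 14 animals, and ERBB2 had -0.17, -0.26 and -0.21 (11 of 14). HBEGF, the heparin-binding ligand, was 1.77 to 5.76 CPM ipsilaterally and 6.02 to 8.77 CPM contralaterally in lactating cows, without overlap (log2 fold change -0.62 ± 0.36; edgeR adjusted p = 0.537). AREG, tested in heifers and lactating cows only, had log2 fold changes of 0.89 ± 0.40 and 0.68 ± 0.61 (edgeR adjusted p = 0.172 and 0.728). NRG1 was not tested in the isthmus between sides. Over the 3 groups, 7 of 23 tests of members passed, against 8 by DESeq2, 6 with the animal as a replicate block and 9 at an unadjusted p under 0.05. Without non-lactating cow B, C or D it was 4. Over all genes, 3686 of 13548, 2988 of 13869 and 1692 of 13904 had an unadjusted p under 0.05 in heifers, non-lactating and lactating cows. DESeq2 called 1911, 1271 and 359 genes there.

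**Figure D3:**
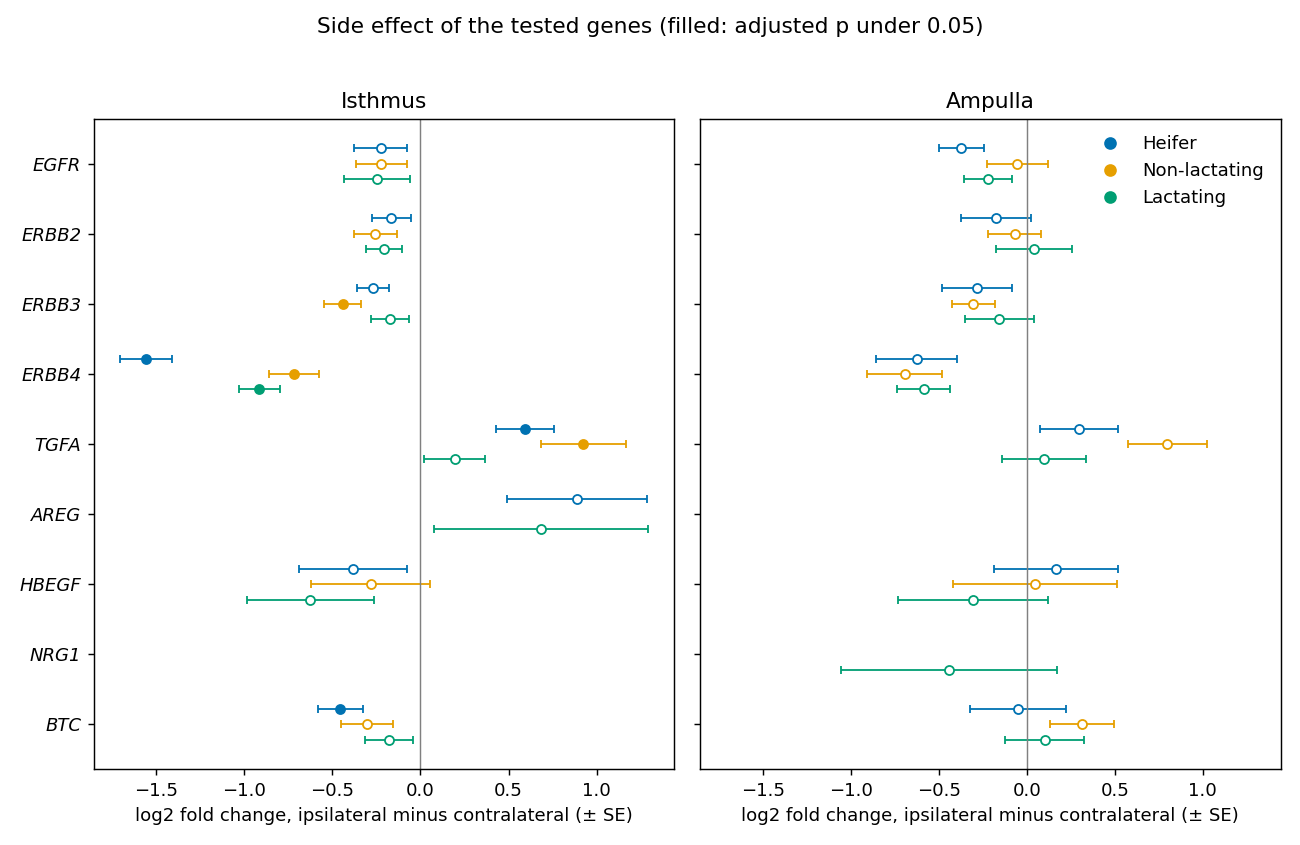
Log2 fold change (ipsilateral minus contralateral, ± SE) of each tested gene by edgeR in the isthmus (left) and the ampulla (right), for heifers, non-lactating and lactating cows, with filled points for an adjusted p under 0.05. The 7 filled points are all in the isthmus, and ERBB4 of heifers lies farthest from 0 at -1.56.

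In the ampulla none of 22 tests of members passed (6 at an unadjusted p under 0.05, and 0 by DESeq2), where 0% of all genes passed in heifers and in lactating cows and 0.0947% in non-lactating cows. Over all genes, 1253 of 13626, 1523 of 13726 and 594 of 13938 had an unadjusted p under 0.05 in heifers, non-lactating and lactating cows. DESeq2 called 82, 133 and 13 genes there. ERBB4 had log2 fold changes of -0.62 ± 0.23, -0.69 ± 0.21 and -0.58 ± 0.15 in heifers, non-lactating and lactating cows (edgeR adjusted p = 0.438, 0.245 and 0.999). In lactating cows its sides did not overlap, at 39.1 to 47.3 CPM ipsilaterally and 52.3 to 70.5 CPM contralaterally. ERBB4 was lower on the ipsilateral side in 11 of 12 animals, with heifer B as the exception, and in 9 of 10 without heifer A and non-lactating cow A. TGFA had log2 fold changes of 0.30 ± 0.22, 0.80 ± 0.22 and 0.10 ± 0.24 (edgeR adjusted p = 0.732, 0.213 and 0.999) and was higher ipsilaterally in 10 of 12 animals, or in 9 of 10 without heifer A and non-lactating cow A. EGFR of heifers was at 105 to 132 CPM ipsilaterally and 140 to 197 CPM contralaterally, without overlap (log2 fold change -0.37 ± 0.13; edgeR adjusted p = 0.432). Without the 4 libraries that went against their animal or number, the count stayed at 0. The log2 fold changes were then -0.65, -0.79 and -0.66 for ERBB4 and 0.45, 0.69 and 0.06 for TGFA in heifers, non-lactating and lactating cows, and -0.32 for EGFR in heifers.

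Whether the side effect itself differed between the regions was tested over all 56 libraries. None of the 9 tested members passed (2 at an unadjusted p under 0.05, 0 by DESeq2), where 5.97% of all genes did (3274 of 16060 at an unadjusted p under 0.05). ERBB4 differed by -0.42 ± 0.16 and BTC by -0.43 ± 0.16 on the log2 scale, isthmus minus ampulla (edgeR adjusted p = 0.110 and 0.0978). Without the 4 libraries that went against their animal or number none passed, and these differences were -0.37 and -0.48 (edgeR adjusted p = 0.234 and 0.109). With the animal as a replicate block BTC passed (edgeR adjusted p = 0.0471). TGFA differed by 0.22 ± 0.21 (edgeR adjusted p = 0.605). The side effect in the isthmus passed the test of a difference between the 3 metabolic groups for none of 8 members (0 by DESeq2), as for 0% of all genes. At an unadjusted p under 0.05 there were 308 of 15031 genes and 1 of the 8 members. That 1 was ERBB4, with an unadjusted p = 0.000241 by edgeR and an adjusted p of 0.9999 in that fit, 0.903 by DESeq2 and 0.502 with the animal as a replicate block.

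The metabolic groups were compared within each region and side, which addresses the effect of lactation and of calving. No member passed in the isthmus (45 tests, 8 at an unadjusted p under 0.05) or the ampulla (47 tests, 3 at an unadjusted p under 0.05). In the ipsilateral isthmus 0.00730% of all genes (1 of 13703) passed between heifers and non-lactating cows, and 0% in each of the other 11 comparisons. DESeq2 called 4 of the 45 tests in the isthmus and 0 of the 47 in the ampulla, and these 4 concerned ERBB4 and TGFA on the ipsilateral side. Over all genes DESeq2 called 230 (non-lactating against heifers), 131 (lactating against heifers) and 13 (lactating against non-lactating) in the ipsilateral isthmus. Contralaterally these were 30, 67 and 2, and in the ampulla 0 to 20. The edgeR fits tested 13512 to 14077 genes per comparison. Of these, 548 to 1619 in the isthmus and 497 to 995 in the ampulla had an unadjusted p under 0.05.

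ERBB4 in the ipsilateral isthmus was 13.6 to 16.9 CPM in heifers, 24.2 to 34.3 CPM in non-lactating and 25.8 to 29.0 CPM in lactating cows. Both cow groups lay above the heifers without overlap and over each other. The log2 fold change against heifers was 0.91 ± 0.14 in non-lactating cows (edgeR adjusted p = 0.0689, DESeq2 3.49e-05) and 0.90 ± 0.13 in lactating cows (edgeR adjusted p = 0.152, DESeq2 9.79e-05). With all isthmus libraries in 1 fit, edgeR's adjusted p-values were 0.00337 and 0.00654. Without the filter the first of them was 0.0415, and without non-lactating cow C 0.0481. On the contralateral side the same fold changes were 0.07 and 0.27, with overlap (edgeR adjusted p = 0.921 and 0.526).

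TGFA in the ipsilateral isthmus was 29.6 to 42.6 CPM in lactating cows, 52.6 to 71.6 CPM in non-lactating cows and 37.2 to 75.4 CPM in heifers. Lactating and non-lactating cows did not overlap (log2 fold change -0.84 ± 0.15; edgeR adjusted p = 0.480, DESeq2 0.00230). Against heifers the lactating cows had a log2 fold change of -0.75 ± 0.19 with overlap through heifer E (edgeR adjusted p = 0.286, DESeq2 0.0454). In the contralateral ampulla TGFA was 17.2 to 32.7 CPM in non-lactating cows and 35.0 to 57.0 CPM in heifers, without overlap (log2 fold change -0.81 ± 0.20; edgeR adjusted p = 0.999, DESeq2 0.159). BTC in the ipsilateral isthmus was 28.8 to 34.4 CPM in lactating cows and 19.2 to 24.99 CPM in heifers, also without overlap (log2 fold change 0.49 ± 0.13; edgeR adjusted p = 0.289, DESeq2 0.0862).

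Isthmus and ampulla were then compared within each side, with the metabolic group as a term. On the ipsilateral side 6 of 9 tested members passed, where 50.3% of all genes did, and on the contralateral side 2 of 8, where 43.5% of all genes did. ERBB3 was higher in the isthmus on both sides, and ERBB4, BTC and ERBB2 were lower in the isthmus on the ipsilateral side. AREG and NRG1 made up the rest, and both passed the filter on low counts almost wholly through the region where they were higher. AREG reached the level the filter asks for (1.98 CPM) in 9 of 14 libraries of the ipsilateral isthmus and 1 of 14 of the ampulla, and NRG1 in 0 and 8. On the contralateral side NRG1 did so (at 2.12 CPM) in 0 and 6. Having entered in this way they had to differ, so their values are a description and their part in the counts says nothing further. The same counts were found without the 4 libraries that went against their animal or number, where the ipsilateral log2 fold changes were 0.20 for ERBB3, -0.64 for ERBB4, -0.28 for ERBB2, -0.54 for BTC, 1.40 for AREG and -2.04 for NRG1.

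Of the receptors, ERBB3 was at 299 to 406 CPM (median 345) in the ipsilateral isthmus and 204 to 338 CPM (median 285) in the ipsilateral ampulla, n = 14 each. The ranges overlapped, yet ERBB3 was higher in the isthmus in 12 of 12 animals, or 10 of 10 without heifer A and non-lactating cow A (log2 fold change 0.26 ± 0.07; edgeR adjusted p = 0.00277). On the contralateral side the medians were 436 and 323 CPM (log2 fold change 0.32 ± 0.09; edgeR adjusted p = 0.00520), with the isthmus higher in 11 of 14 animals. ERBB4 on the ipsilateral side was at 13.6 to 34.3 CPM (median 25.5) in the isthmus and 23.9 to 47.3 CPM (median 34.5) in the ampulla, lower in the isthmus in 11 of 12 animals (log2 fold change -0.68 ± 0.10; edgeR adjusted p = 6.69e-07). Contralaterally its medians were 47.2 and 56.4 CPM (log2 fold change -0.24 ± 0.12; edgeR adjusted p = 0.108). Without heifer B the adjusted p was 0.0247. ERBB2 was 1.16-fold lower in the ipsilateral isthmus (log2 fold change -0.21 ± 0.08; edgeR adjusted p = 0.0244), a call lost without the filter (0.0584) and without heifer D, lactating cow C or D or non-lactating cow C (0.0507 to 0.0606). EGFR had log2 fold changes of 0.07 ± 0.09 and 0.10 ± 0.09 (edgeR adjusted p = 0.548 and 0.444).

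Of the ligands, NRG1 in the ipsilateral isthmus had 0 to 8 reads (0 to 1.69 CPM, median 0.388) and in the ipsilateral ampulla 5 to 21 reads (0.993 to 3.93 CPM, median 2.20). The isthmus median of 2 reads lies under the floor of 3, so no fold is given. It was lower in the isthmus in 12 of 12 animals (fitted log2 difference -1.98 ± 0.30; edgeR adjusted p = 2.82e-06). Contralaterally it had 0 to 8 and 2 to 41 reads (fitted log2 difference -1.67 ± 0.52; edgeR adjusted p = 0.0102), with 11 of 14 animals lower in the isthmus. AREG on the ipsilateral side had 4 to 28 reads in the isthmus (0.786 to 4.59 CPM, median 2.68) and 0 to 13 in the ampulla (0 to 2.41 CPM, median 0.961), higher in the isthmus in 10 of 12 animals (fitted log2 difference 1.40 ± 0.33; edgeR adjusted p = 0.000766). On the contralateral side AREG did not pass the filter, with medians of 1.36 and 0.617 CPM. BTC was at 19.2 to 34.4 CPM in the ipsilateral isthmus and 23.1 to 57.6 CPM in the ipsilateral ampulla, lower in the isthmus in 11 of 12 animals (log2 fold change -0.51 ± 0.10; edgeR adjusted p = 0.000160). On the contralateral side its log2 fold change was -0.05 ± 0.12 (edgeR adjusted p = 0.791). TGFA (0.19 ± 0.13 and 0.02 ± 0.14) and HBEGF (-0.26 ± 0.22 and 0.15 ± 0.20) did not pass on either side.

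**Figure D4:**
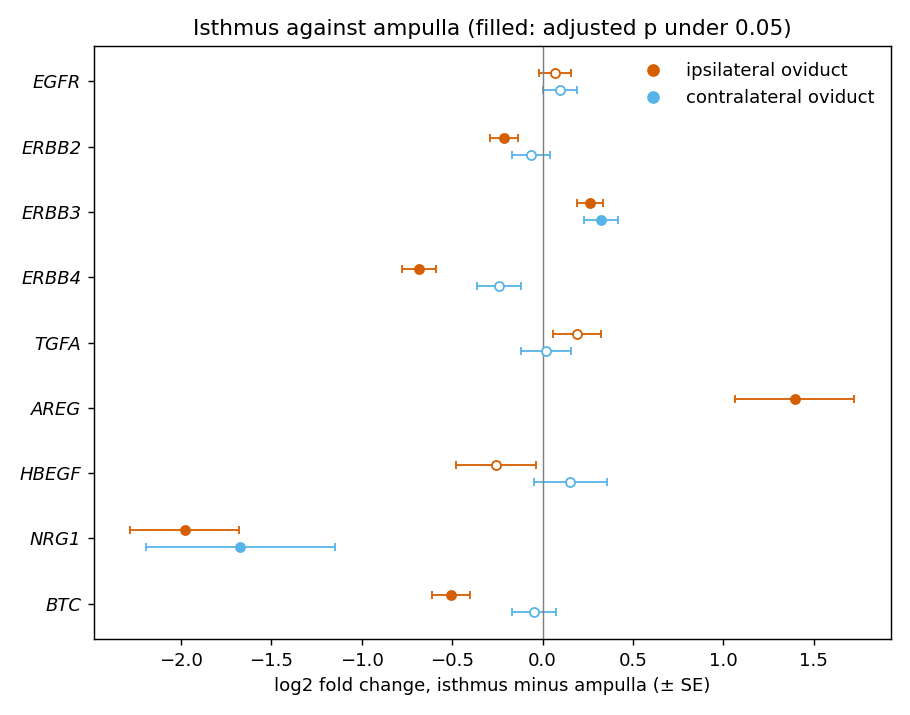
Log2 fold change (isthmus minus ampulla, ± SE) of each tested gene by edgeR on the ipsilateral and the contralateral side, over all 3 metabolic groups (14 libraries per region and side), with filled points for an adjusted p under 0.05. NRG1 lies lowest at -1.98 and -1.67, and AREG, tested ipsilaterally only, highest at 1.40.

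Markers of other cell types also differed between the regions. All 8 ciliated cell markers were lower in the isthmus on both sides, with summed levels of 3508 to 6586 CPM against 4800.4 to 9518 CPM in the ampulla. Endothelial markers summed to 5.96 to 98.2 CPM in the isthmus and 69.2 to 357 CPM in the ampulla, with 2 of 3 lower in the isthmus on both sides. This sum was mostly KDR (median 74.3 CPM over all libraries, beside 79.1 for the sum). PECAM1 and VWF had medians of 2.97 and 4.37 CPM. Smooth muscle markers summed to 10.3 to 93.8 CPM in the isthmus and 7.33 to 30.0 CPM in the ampulla, and MYH11 alone reached 88.5 CPM. Of 3 tested, however, 1 was higher and 1 lower in the isthmus on each side (median log2 fold change -0.70 ipsilaterally and -0.33 contralaterally). Of 7 epithelial markers 4 were higher and 1 lower in the isthmus ipsilaterally, and 2 and 1 contralaterally. Secretory markers (3 tested) had 2 and 1 lower, and fibroblast markers 2 higher and 1 lower on each side. Over the 56 libraries, which share conditions and animals, the log2 CPM of ERBB4 correlated with the summed ciliated markers at r = 0.60, with the endothelial ones at 0.55 and with the smooth muscle ones at -0.57. For epithelial, secretory, fibroblast and leukocyte markers r was -0.03, 0.03, 0.08 and 0.22. OVGP1 is in both the epithelial and the secretory list. Its median was 9418 CPM, beside medians of 10607 and 9602 CPM for these sums. Both sums were therefore largely OVGP1 and not a measure of epithelial content. The part of these cells in the levels of ERBB4, NRG1, BTC and AREG was not tested.

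Of 60 further genes of the pathway, chosen by their place in it with earlier results known, 59 were found and 50 to 57 tested per comparison. Between sides of the isthmus 5 of 51 passed in heifers (1 higher and 4 lower ipsilaterally), 4 of 51 in non-lactating cows (3 higher and 1 lower) and 0 of 53 in lactating cows (9 at an unadjusted p under 0.05, 4 by DESeq2). These are 9.8%, 7.84% and 0% of the tested genes, beside 10%, 5.11% and 0.187% of all genes, so the share in heifers is that of all genes. ARAF, a kinase between RAS and MEK, was 187 CPM ipsilaterally and 83.7 CPM contralaterally in heifers (log2 fold change 1.13 ± 0.21; edgeR adjusted p = 0.00788). In non-lactating cows it was 132 CPM ipsilaterally and 53.0 CPM contralaterally (log2 fold change 1.30 ± 0.16; edgeR adjusted p = 0.00185). The adaptor SHC1 (0.44 ± 0.09) and the phosphatase PTPN11 (0.40 ± 0.10) were higher as well (edgeR adjusted p = 0.0173 and 0.0429). MYC and CCND1, which drive growth and the cell cycle, were lower ipsilaterally in heifers (log2 fold changes -1.44 ± 0.21 and -1.17 ± 0.34; edgeR adjusted p = 0.00560 and 0.0477), and IER3, an early response gene, was lower in non-lactating cows (-1.22 ± 0.25; edgeR adjusted p = 0.0161).

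Of the growth factor response genes, 2 of 7 passed in heifers and 1 of 7 in non-lactating cows. Their median log2 fold changes were -0.93 and -0.67, beside -0.01 and 0.01 over all genes. This list lay farthest from 0 of the pathway lists in both groups. The other lists had medians of -0.34 to 0.11 in heifers and -0.22 to 0.55 in non-lactating cows. MYC, CCND1 and IER3, the genes called, had means of only 2.99 to 14.9 CPM in these comparisons. In the isthmus of lactating cows the median of the growth factor response genes was -0.54 (0 of 8 passed). In the ampulla it was -0.35, -0.22 and -0.30 in heifers, non-lactating and lactating cows (0 of 7 passed in each). Another list lay farther from 0 in the isthmus of lactating cows (other ligands, 0.59). The same held in the ampulla of non-lactating cows (ERK feedback genes, 0.28) and of lactating cows (other ligands, 0.41). In the ampulla DUSP6, an ERK phosphatase that ERK signalling induces, was the 1 gene of 51 that passed in non-lactating cows (23.6 against 6.01 CPM; log2 fold change 1.99 ± 0.33; edgeR adjusted p = 0.0331), but not without the 4 libraries (0.0542). None of 51 passed in the ampulla of heifers (6 at an unadjusted p under 0.05, 2 by DESeq2) or of 53 in that of lactating cows (2 and 0). None passed in any of the 12 comparisons of metabolic groups, with 0 to 11 at an unadjusted p under 0.05 in each. By DESeq2, heifers and non-lactating cows differed in 3 of these genes in the ipsilateral and in 1 in the contralateral isthmus, and the other 10 comparisons had 0. Over all genes DESeq2 called 230 and 30 between these groups in the ipsilateral and contralateral isthmus.

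Between regions 30 of 57 passed ipsilaterally (17 higher and 13 lower in the isthmus) and 30 of 56 contralaterally (20 and 10). That is 52.6% and 53.6%, where 50.3% and 43.5% of all genes passed, so the ipsilateral share is near that of all genes. The feedback inhibitor SPRY1 was 69.6 CPM in the contralateral isthmus and 14.1 CPM in the ampulla (log2 fold change 2.29 ± 0.17; edgeR adjusted p = 3.17e-12). On the ipsilateral side SPRY1 was higher as well (1.26 ± 0.14; edgeR adjusted p = 7.41e-09). SPRY4, of the same family, was lower in the isthmus on both sides, by a log2 fold change of -2.01 ± 0.25 ipsilaterally and -1.32 ± 0.34 contralaterally (edgeR adjusted p = 1.35e-07 and 0.00185). DUSP6 was higher contralaterally (1.56 ± 0.15; edgeR adjusted p = 5.06e-10) and had 0.23 ± 0.22 ipsilaterally (edgeR adjusted p = 0.388). ETV5, a transcription factor downstream of ERK, was lower ipsilaterally (-1.89 ± 0.41; edgeR adjusted p = 0.000339) and had -0.55 ± 0.45 contralaterally (edgeR adjusted p = 0.343). Among the other ligands EREG, which binds EGFR and ERBB4, was 4.28 CPM in the ipsilateral isthmus and 1.11 CPM in the ampulla (log2 fold change 1.91 ± 0.35; edgeR adjusted p = 3.70e-05), with 1.09 ± 0.54 contralaterally (edgeR adjusted p = 0.104). NRG3, an ERBB4 ligand, was 0.660 CPM in the contralateral isthmus and 8.99 CPM in the ampulla (-3.69 ± 0.40; edgeR adjusted p = 7.81e-09), and was lower ipsilaterally too (-2.42 ± 0.32; edgeR adjusted p = 2.98e-07). The lower means of EREG (ipsilateral ampulla) and NRG3 (contralateral isthmus) lie under the level the filter asks for (1.98 and 2.12 CPM). So do those of NRG2 and PHLDA1, called higher in the ipsilateral isthmus, at 1.69 and 1.67 CPM in the ipsilateral ampulla. All of these genes may have passed the filter mainly through the region where they were higher. Their values are therefore a description, and their part in the counts says nothing further.

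The side effect differed between the regions for 7 of 57 of these genes (12.3%, beside 5.97% of all genes), more positive in the isthmus for 2 and more negative for 5. ARAF (1.005 ± 0.17; edgeR adjusted p = 0.000178) and MAP2K2, which encodes the kinase MEK2 (0.51 ± 0.13; edgeR adjusted p = 0.0156), made up the first. DUSP6 (-1.30 ± 0.27), SPRY1 (-1.02 ± 0.22) and CCND1 (-0.90 ± 0.28) had the most negative differences (edgeR adjusted p = 0.00195, 0.00238 and 0.0429). MAP2K2 and NRAS (-0.31 ± 0.10), another gene with a more negative effect in the isthmus, were lost without the 4 libraries (edgeR adjusted p = 0.0528 and 0.0881). For a difference between metabolic groups in the isthmus none of 56 passed (2 at an unadjusted p under 0.05, 0 by DESeq2).

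Over all 56 libraries the genes most like TGFA, by the Pearson correlation of log2 CPM among 9624 genes, were TPD52L1 (r = 0.709), KIF1B (0.707) and ALDH3A2 (0.705). Those most like ERBB4 were NR1D2, which encodes a nuclear receptor of the circadian clock (r = 0.826), OTUD1 (0.816) and USP28 (0.804), both of which encode deubiquitinases. The libraries share their animals and conditions, and these values are descriptions.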

How the data were processed

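Epithelial RNA of the ampulla and isthmus was sequenced by the authors from stranded libraries as single-end reads. Per the labels and methods, they aligned the reads with TopHat2 (2.0.13) to Btau_4.6.1 and made the deposited counts with HTSeq (0.6.1), by strand and with intersection-strict overlap. The deposited values are whole-number counts per gene symbol, neither normalized nor filtered. The 5 summary lines were left out, and 8.66 to 13.7% of counted alignments lay on genes. Strict overlap leaves out reads that extend past an annotated feature, and its effect on these genes was not tested. Columns were grouped by metabolic group, region and side as named. Within conditions, all 104 pairs of libraries differed beyond sampling noise (the smallest chi-square was 5.20 per degree of freedom), so errors are the SD between animals.

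CPM were computed with TMM in edgeR (4.0.16, with limma 3.58.1, R 4.3.3). Each comparison was fitted on its own libraries and all genes kept by filterByExpr (minimum count 10) with edgeR's quasi-likelihood F test, Benjamini-Hochberg adjusted, and called at 0.05. Log2 CPM used a prior count of 2, and SE were the log2 fold change over the root of F. The script was tested on simulated data. Alternatives were RLE size factors, DESeq2 (1.42.0), no filter, all libraries of a region in 1 fit, the animal number as a replicate block, leaving out the 4 ipsilateral ampulla libraries, and leaving out each animal. The members, gene lists and tests were chosen with earlier results of these data known. Named genes are the 10 members, for each family of comparisons up to 3 called pathway genes with the largest change in each direction, and the 3 genes most like TGFA and ERBB4. NRAS, NRG2 and PHLDA1 are named for a limit only. Transcript lengths and sequences were not used here.

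The pairing comes from the animal numbers in the column names. Over 10616 genes centred on their condition, the sides of the isthmus of 1 animal correlated at a median of 0.389 (-0.043 to 0.553, 14 pairs, 11 over 0.1) and the sides of the ampulla at 0.266 (12 pairs, 9 over 0.1). The regions correlated at 0.209 (ipsilateral, 12 pairs) and 0.214 (contralateral, 14 pairs).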

Additional observations from a re-analysis of the deposited data

Results flagged for a closer look

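Each gene in each group of 4 or 5 libraries was screened for a library far from the others by Dixon's criterion, and 11 of 112 groups had one, where chance gives about 1 in 20. Values are CPM of that library with the range of the others in its condition.

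Among the receptors, EGFR was 194 in the contralateral isthmus of non-lactating cow D (others 132 to 146) and ERBB4 was 59.1 in the same library (others 38.8 to 44.2). ERBB2 was 469 in the contralateral ampulla of heifer B (others 216 to 286), and ERBB3 was 380 in the contralateral isthmus of heifer C (others 451 to 468).

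Among the ligands, TGFA was 48.4 in the contralateral isthmus of heifer D (others 34.7 to 38.0), and BTC was 40.5 in that of non-lactating cow C (others 30.9 to 33.4) and 29.3 in that of lactating cow C (others 37.1 to 37.9). HBEGF was 1.77 with 9 reads in the ipsilateral isthmus of lactating cow B (others 5.41 to 5.76). NRG1 was 1.92 with 8 reads in the contralateral isthmus of heifer B (others 0 to 0.444). EGF was 0.191 in the ipsilateral ampulla of heifer B and 0.199 in the ipsilateral isthmus of lactating cow A, 1 read each, with the other libraries of both conditions at 0.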

How the results depend on the processing

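The count of members passing between metabolic groups in the isthmus rose from 0 to 4 with DESeq2, to 1 without the filter and to 2 with all isthmus libraries in 1 fit, and was 0 to 1 when an animal was left out. The cause was not tested. For the difference in side effect between regions it was 0, but 1 (BTC) with the replicate block. Leaving out an animal gave 4 to 7 members (7 with all animals) between sides of the isthmus, 7 to 9 (8) between regions, and 0 between sides or metabolic groups in the ampulla and for both differences in side effect. No called direction reversed under these settings, the other counts stayed within 1.5 times, and mean CPM with RLE size factors moved by less than the SD between animals. The replicate block took the calls between sides of the isthmus from 7 to 6, through ERBB3 in non-lactating cows, and changed no other call of these 10 genes but that of BTC. Depth limits AREG, NRG1 and EGF, and groups of 4 or 5 animals limit the calls lost when 1 is left out.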

Other observations

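Over the 56 libraries, log2 CPM of ERBB4 correlated with that of TGFA at r = -0.53, of AREG at -0.49 and of BTC at 0.49. NRG1 correlated with BTC at 0.51 and ERBB2 with ERBB3 at 0.49, whereas ERBB3 and ERBB4, both receptors of neuregulins, had r = -0.01. These values describe libraries that share animals and conditions.

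EGF had a read in 4 of 5 contralateral isthmus libraries of heifers (0.201 to 0.444 CPM, 1 read each) and in 2 of 5 of non-lactating cows, with 7 of its 9 reads in that tissue. All of these counts are below the floor of 3 reads.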
